A study of Mus musculus with 8 samples.

Results

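Scgb1c1, Cabcoco1 and B3galt2 are 3 genes whose transcripts were among those most strongly lowered in mouse hearts deficient in the histone deacetylase HDAC3. They were chosen by their measured difference between HDAC3-deficient (KO) and wild type (WT) hearts, as genes with little known role in the heart among the strongest falls, out of 19933 genes with a transcript cluster of their own (the array's gene-level probe set), of which 14950 were bright enough to be tested. Their own differences are therefore given as a description without a test. Whole hearts came from male C57BL/6 mice aged 6 weeks on normal chow: 4 KO hearts, from a line that the design text calls MCH3-KO, and 4 WT hearts, each on 1 Affymetrix Mouse Gene 1.0 ST array. Which cells of the heart lost Hdac3, by which promoter and at what stage, is not in the labels, which also name no allele or further transgene in either group. Replicates are called biological in the titles, and 1 array stands for 1 mouse.

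The 3 genes come from unrelated families. Secretoglobins are small secreted proteins, best known from airway lining fluid and from glands, and Scgb1c1 belongs to the branch first described in the olfactory mucosa of the rat under the name RYD5. B3galt2 encodes a beta-1,3-galactosyltransferase of the Golgi apparatus, which transfers galactose from UDP-galactose to N-acetylglucosamine at the end of sugar chains on proteins and lipids, and its human counterpart was described as expressed in heart and brain. Cabcoco1 is named for a cilium-associated, calcium-binding, coiled-coil protein, and little is known of its role in the heart. HDAC3 removes acetyl groups from histones as part of the corepressor complex that nuclear receptors recruit.

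The 3 genes were chosen for their falls, so that their joint fall is no sign of shared control. The 250 bases before each gene's annotated start are shown as a description. They come from RefSeq's sequence of GRCm38.p6, read 5′ to 3′ on the strand of the gene, and all 3 symbols were found there with 1 start each. Capitals mark matches on either strand to 9 short motifs, which were picked after these sequences had been seen. They were the core element of many nuclear receptors, spelled AGGTCA, an E-box, spelled CACGTG, and the core bound by zinc finger factors of the GATA family, spelled GATAA. Further motifs were a TATA-like element, spelled ATAAAA, part of the cyclic AMP response element, spelled TGACGT, a core bound by T-box factors, spelled AGGTGT, and the box bound by Sp factors, spelled GGGCGG. The last were the MEF2 site and the CArG box, which serum response factor binds.
Scgb1c1, chr7:140845315-140845564, plus strand: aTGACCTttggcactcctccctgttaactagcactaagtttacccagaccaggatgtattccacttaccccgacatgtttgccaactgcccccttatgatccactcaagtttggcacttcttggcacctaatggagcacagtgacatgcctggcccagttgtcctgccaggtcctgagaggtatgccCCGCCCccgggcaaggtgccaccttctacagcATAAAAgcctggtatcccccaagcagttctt
Cabcoco1, chr10:68541876-68542125, minus strand: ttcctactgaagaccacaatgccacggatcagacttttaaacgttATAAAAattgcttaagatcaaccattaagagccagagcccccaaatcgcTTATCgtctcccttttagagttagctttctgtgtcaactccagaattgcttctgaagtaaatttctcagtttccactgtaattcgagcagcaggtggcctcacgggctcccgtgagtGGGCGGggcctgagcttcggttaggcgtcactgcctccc
B3galt2, chr1:143640447-143640696, plus strand: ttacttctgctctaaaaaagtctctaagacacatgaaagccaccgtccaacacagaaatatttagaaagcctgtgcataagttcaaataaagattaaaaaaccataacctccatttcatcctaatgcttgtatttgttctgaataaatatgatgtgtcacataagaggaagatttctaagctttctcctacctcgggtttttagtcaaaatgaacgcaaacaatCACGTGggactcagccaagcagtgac

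No motif of the 9 was present in all 3 windows. The window of Scgb1c1 held ATAAAA from 31 to 26 bases before the start, a GGGCGG match 63 to 58 bases before it and an AGGTCA match near its far end, 249 to 244 bases before it. These 3 motifs occur in 17.0%, 32.7% and 14.0% of all 32851 RefSeq windows of the same length. The window of Cabcoco1 also held ATAAAA and GGGCGG, at 205 to 200 and 39 to 34 bases before the start, and GATAA, which 22.6% of all windows hold. The window of B3galt2 held CACGTG alone, 26 to 21 bases before the start, a motif present in 6.02% of all windows and, being its own reverse complement, 1 site on both strands. The cyclic AMP, T-box, MEF2 and CArG motifs had no match in the 3 windows and occur in 6.47%, 11.8%, 0.508% and 1.47% of all windows. A match describes letters in a window and is not evidence of a bound site.

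Base composition also differed among the 3 windows. B3galt2 had 36.8% G and C, and 6.74% of all windows had less. Scgb1c1 had 53.6% and Cabcoco1 48.4%, against a median of 52.4% over all windows. Counts of the CG dinucleotide were 3 for Scgb1c1, 10 for Cabcoco1 and 4 for B3galt2, against a median of 6.

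Each of the 3 genes is read by 1 transcript cluster, so no other probe set checks its value. All levels are log2 of the deposited intensity, a relative scale on which values of different genes are not comparable, and all differences are KO minus WT on that scale, with 4 arrays per group.

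The targeted gene was read first as a check of the labels. Hdac3 (cluster 10458461, chromosome 18) read 8.59, 8.59, 8.59 and 8.50 in KO hearts, against 10.14, 10.04, 10.20 and 10.04 in WT hearts. Every KO heart lay below every WT heart, as the labels have it, although whether the probes lie inside the removed part of the gene is not known. The mean was 8.57 ± 0.05 in KO hearts and 10.10 ± 0.08 in WT hearts (SD, n = 4 each), leaving 34.4% of the WT level (95% interval 31.7 to 37.5%), and Hdac3 stood in place 19 among falls.

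Scgb1c1 (cluster 10558694, chromosome 7) read 6.79, 6.68, 6.66 and 6.69 in KO hearts, against 9.85, 9.57, 9.69 and 9.81 in WT hearts. The groups lay far apart, with 2.79 log2 units between the highest KO and the lowest WT heart, against a range of 0.28 among the WT hearts. In intensity these were 101 to 110 in KO hearts and 762 to 924 in WT hearts. The mean was 6.70 ± 0.06 in KO hearts and 9.73 ± 0.12 in WT hearts (SD, n = 4 each), a difference of -3.03 (SE 0.07, 95% interval -3.18 to -2.88). The KO level was 12.3% of the WT level (95% interval 11.1 to 13.6%). No gene of the 14950 fell further, and the next was Gpr22 (-2.51), an orphan G protein-coupled receptor gene.

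Cabcoco1 (cluster 10369806, chromosome 10) read 6.60, 6.77, 6.76 and 6.62 in KO hearts, against 8.69, 8.79, 8.57 and 8.61 in WT hearts. Again no KO heart came near a WT heart, and the gap of 1.80 was 8.05 times the wider of the spreads within a group. The mean was 6.69 ± 0.09 in KO hearts and 8.66 ± 0.10 in WT hearts (SD, n = 4 each), a difference of -1.98 (SE 0.07, 95% interval -2.12 to -1.83). That left 25.4% of the WT level (95% interval 22.9 to 28.1%). Cabcoco1 stood in place 5 among falls, between the growth factor gene Fgf16 (-2.06) and Ogdhl (-1.87), an oxoglutarate dehydrogenase-like gene.

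B3galt2 (cluster 10350473, chromosome 1) read 5.25, 5.09, 5.29 and 5.25 in KO hearts, against 6.77, 7.32, 7.08 and 6.79 in WT hearts. The groups did not overlap, but the WT hearts were less alike: replicates 2 and 3 lay above replicates 1 and 4, and the gap of 1.48 was 2.71 times the WT spread of 0.55. The mean was 5.22 ± 0.09 in KO hearts and 6.99 ± 0.26 in WT hearts (SD, n = 4 each), a difference of -1.77 (SE 0.11, 95% interval -2.03 to -1.52). The KO level was 29.3% of the WT level (95% interval 24.6 to 34.9%). B3galt2 stood in place 8, between the amino acid transporter gene Slc36a2 (-1.81) and Kcnip2 (-1.74), a subunit gene of the transient outward potassium channel. Its KO mean was the only one of the 3 close to the filter on dim genes (log2 4.50), 0.72 above it, while those of Scgb1c1 and Cabcoco1 were 2.21 and 2.19 above it. Without background values or detection calls, how much of the remaining KO signal is transcript could not be separated from background for any of them.

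**Figure D1:**
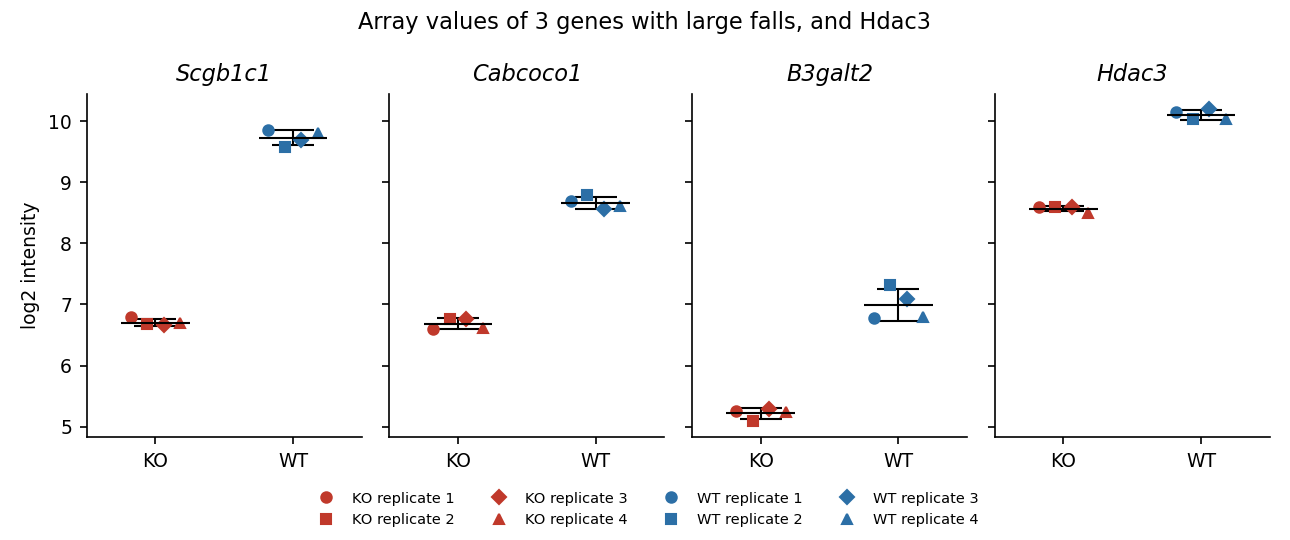
Log2 intensity (vertical axis) of Scgb1c1, Cabcoco1, B3galt2 and the targeted gene Hdac3 in each of the 4 KO (left, red) and 4 WT (right, blue) hearts, with a marker shape for each replicate number and bars for the mean and SD. No KO heart overlaps a WT heart in any panel, and the WT hearts of B3galt2 spread from 6.77 to 7.32.

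For background, 24.6% of the 14950 genes changed at a Benjamini-Hochberg adjusted p under 0.05 in limma, 10.8% higher and 13.9% lower. KO and WT arrays did not overlap for 28.6% of genes, and every KO array lay below every WT array for 16.8%. A fall of at least 1 log2 unit that passed the test was seen in 0.368% of genes, 55 in all, and the 3 genes are among them because they were chosen so. The median difference over all genes was -0.01. Array medians lay between 54.1 and 56.5, and array pairs correlated at 0.995 to 0.997 across clusters among KO hearts, 0.993 to 0.996 among WT hearts and 0.989 to 0.992 between the groups. Clusters are not independent replicates.

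**Figure D2:**
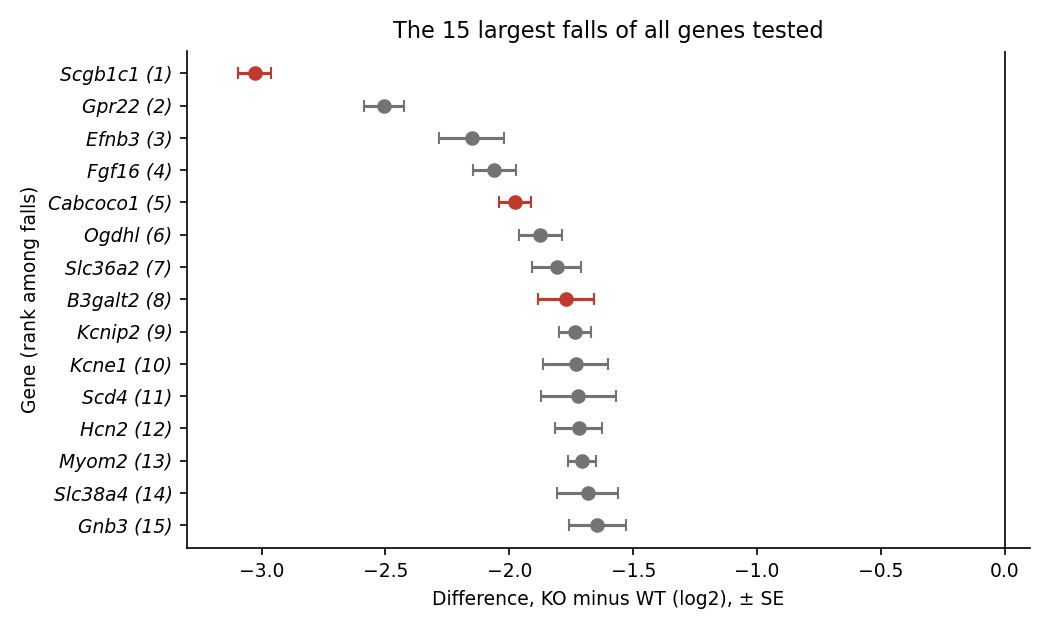
Difference KO minus WT (log2, horizontal axis, with bars for the SE) of the 15 genes that fell furthest among 14950, ordered from the largest fall at the top, with the 3 chosen genes in red. Scgb1c1 stands apart at -3.03, whereas Cabcoco1 (-1.98) and B3galt2 (-1.77) lie within a run of closely spaced values.

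Within the groups the 3 genes did not follow one another from heart to heart. WT replicate 2 was the lowest WT heart for Scgb1c1, 0.16 below its group mean, but the highest for Cabcoco1, 0.12 above, and for B3galt2, 0.33 above. KO replicate 2 was above its group mean for Cabcoco1 (by 0.08) and below it for B3galt2 (-0.13). The pooled SD within groups was 0.10 for Scgb1c1 and 0.09 for Cabcoco1, near the median of 0.10 over all genes, whereas that of B3galt2, 0.20, exceeded the SD of 93.8% of genes.

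Likeness of pattern was measured as the root mean square distance over the 8 arrays between log2 profiles centred on their own means. Nearest to Scgb1c1 were Gpr22 at 0.30, the ephrin gene Efnb3 at 0.48 and Fgf16 at 0.51, so that no gene matched the size of its fall. Nearest to Cabcoco1 were Fgf16 at 0.13, Slc36a2 at 0.15 and Kcnip2 at 0.15. Fgf16 read 7.58, 7.57, 7.42 and 7.61 in KO hearts, against 9.78, 9.74, 9.50 and 9.41 in WT hearts. B3galt2 was nearest to Kcnip2 at 0.13, the sodium-coupled amino acid transporter gene Slc38a4 at 0.14 and the RING finger gene Rnf207 at 0.17. Slc38a4 shared the high WT replicate 2: it read 5.72, 5.76, 5.57 and 5.66 in KO hearts, against 7.22, 7.80, 7.23 and 7.21 in WT hearts. Between the 3 genes themselves the distance was 0.20 for Cabcoco1 and B3galt2, 0.54 for Scgb1c1 and Cabcoco1, and 0.67 for Scgb1c1 and B3galt2. Since the group difference dominates each profile, this distance mainly finds genes with a fall of like size.

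Few relatives of Scgb1c1 could be measured in these hearts. Of 27 other secretoglobins looked for, 9 had a cluster of their own, 7 of these lay below the dim filter and 2 were tested. Scgb3a1, a secretoglobin of airway epithelium, was 6.34 ± 0.16 in KO hearts and 6.30 ± 0.12 in WT hearts (SD, n = 4 each), a difference of 0.04 (SE 0.09, adjusted p = 0.792, limma). Scgb1b27, a gene of the androgen-binding protein cluster, was 5.66 ± 0.09 in KO hearts and 5.57 ± 0.21 in WT hearts (SD, n = 4 each), a difference of 0.09 (SE 0.10, adjusted p = 0.556, limma). Neither passed with limma, also at an unadjusted p under 0.05 (0 of 2), against 24.6% of all genes changed at the adjusted threshold. With WT means of 6.30 and 5.57 against the dim filter at 4.50, a fall the size of that of Scgb1c1 could hardly have been seen in either. The others give no information on a fall. Scgb1a1, the club cell secretoglobin, is named after its values were seen: below the filter, it ranged from 2.63 to 3.03 in KO hearts and from 2.61 to 4.44 in WT hearts.

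A list of secreted factors of heart muscle cells formed a wider comparison for Scgb1c1, although whole hearts do not show which cells express Scgb1c1. Of the 27 listed genes tested, 3 rose and 6 fell, against 24.6% of all genes changed, and their median difference was -0.06. The list held Fgf16, whose large fall was known when it was drawn up. Fgf16 fell by 2.06 on the log2 scale (SE 0.09), and the fibroblast growth factor homologous factor gene Fgf13, which acts on sodium channels inside the cell, fell by 0.44 (SE 0.06). The vascular growth factor gene Vegfb fell by 0.32 (SE 0.05), with 9.97, 9.95, 9.90 and 9.85 in KO hearts, against 10.31, 10.26, 10.17 and 10.18 in WT hearts. Igf1, insulin-like growth factor 1, rose by 0.75 (SE 0.10). The highest difference of the list, 1.76 (SE 1.62, adjusted p = 0.493, limma), was that of Bmp10, an atrial growth factor gene named after its values were seen. Bmp10 read 10.21, 10.78, 4.85 and 9.06 in KO hearts, against 9.76, 4.03, 9.78 and 4.26 in WT hearts, so that both groups held high and low hearts and overlapped. Adjusted p-values in limma were 3.67e-07 for Fgf16, 0.000316 for Fgf13, 0.00159 for Vegfb and 0.000501 for Igf1. Without WT replicate 3 the list held 5 changed genes in place of 9.

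B3galt2 belongs to the beta-1,3-glycosyltransferases, an enzyme family that extends many kinds of sugar chain. Of 25 other members, 22 were tested, of which 2 rose and 2 fell, against 24.6% of all genes changed, and their median difference was -0.03. The falls were those of Chpf, a chondroitin polymerising factor (-0.29, SE 0.06, adjusted p = 0.00402), and B3glct, which adds glucose to O-linked fucose (-0.37, SE 0.08, adjusted p = 0.00458, limma). B3galnt1, the globoside synthase gene, rose by 0.29 (adjusted p = 0.0193) and Lfng, which modifies Notch receptors, by 0.39 (adjusted p = 0.03, limma). Lfng groups overlapped: 7.43, 7.55, 7.22 and 7.37 in KO hearts, against 6.82, 6.76, 7.18 and 7.23 in WT hearts. Lfng missed the threshold with the replicate number as a block (adjusted p = 0.0664) and without KO replicate 1, 2 or 4 or WT replicate 1 or 2 (lowest 0.0143 and highest 0.0853 in all alternatives). B3galnt1 missed it without KO replicate 2 or 3 or WT replicate 4, within a range of 0.0157 to 0.0571. Without KO replicate 2 the family held 2 changed genes.

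The closest relatives of B3galt2, named here for their kinship and after their values were seen, showed no change that passed. B3galt1 was 4.66 ± 0.07 in KO hearts and 4.72 ± 0.04 in WT hearts, a difference of -0.06 (SD, n = 4 each, adjusted p = 0.455, limma). B3galt4 differed by -0.09 (SE 0.10, adjusted p = 0.603) and B3galt6, which builds the linker of proteoglycans, by -0.11 (SE 0.07, adjusted p = 0.313, limma). B3galt5 lay below the dim filter. The KO means of B3galt1, B3galt4 and B3galt6 lay 0.16, 1.09 and 0.85 above that filter. A fall of the size of that of B3galt2 could therefore hardly have been seen in B3galt1, and had limited room in B3galt4 and B3galt6.

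Enzymes that supply or attach galactose, or build the chains that B3galt2 can extend, formed a further list: 3 of 22 tested rose and 7 fell, with a median difference of 0.06. Over all genes 10.8% rose and 13.9% fell. Ugp2, which makes UDP-glucose, the precursor of UDP-galactose, rose by 0.70 (SE 0.06, adjusted p = 2.24e-05, limma). It was 10.81 ± 0.04 in KO hearts and 10.11 ± 0.10 in WT hearts (SD, n = 4 each). Phosphoglucomutase (Pgm1), which feeds the same precursor, fell by 0.34 (SE 0.04, adjusted p = 0.000342). Galm, the galactose mutarotase, fell by 0.47 (SE 0.08, adjusted p = 0.00189) and Mgat5, which starts a branch of N-glycans, by 0.48 (SE 0.07, adjusted p = 0.000532, limma). Changed genes of this list therefore ran in both directions, and none came near the fall of B3galt2.

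Of 23 tested genes for sialic acid and fucose, the sugars that cap galactose, 4 rose and 7 fell, with a median difference of -0.10, against 24.6% of all genes changed. The sialyltransferase gene St3gal2 rose by 0.48 (SE 0.04, adjusted p = 3.06e-05) while its relative St3gal4 fell by 0.38 (SE 0.06, adjusted p = 0.00103, limma). Nans, the sialic acid synthase gene, rose by 0.42 (SE 0.07, adjusted p = 0.00149, limma). St6galnac6, which adds sialic acid to N-acetylgalactosamine, fell by 0.24 (adjusted p = 0.0135, limma). The count of changed genes was 11, and 6 without WT replicate 1 and 7 without KO replicate 1, 2 or 3.

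Genes of motile cilia and flagella, the setting from which Cabcoco1 takes its name, were examined next. Of 49 others, 45 had a cluster, 18 of them below the dim filter. Of the 27 tested, 1 rose and 1 fell, against 24.6% of all genes changed, with a median difference of 0.03. Dnaaf3, an assembly factor for axonemal dyneins, rose by 0.23 (SE 0.06, adjusted p = 0.0142, limma). Odf2, a protein of sperm tail fibres and of centrioles, fell by 0.15 (SE 0.05, adjusted p = 0.0494, limma). Odf2 missed the threshold in 11 of 17 alternatives, among them leaving out any single array, with adjusted p from 0.0255 to 0.127. The count of 2 became 1 without any single array other than WT replicate 3. The axoneme gene Gas8 (0.21, adjusted p = 0.0931) and Dnaaf1 (0.13, adjusted p = 0.255) did not pass.

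Intraflagellar transport and basal body genes serve the primary cilium that most cell types carry. Of 33 tested, 3 fell and 0 rose (0 also at an unadjusted p under 0.05 in limma, where 9 were lower), against 13.9% of all genes lower and 10.8% higher, and the median difference was -0.08. Ift20 fell by 0.29 (SE 0.05, adjusted p = 0.00208), with 9.90, 9.84, 9.93 and 9.86 in KO hearts, against 10.10, 10.25, 10.16 and 10.18 in WT hearts. Bbs2, a subunit of the ciliary cargo adaptor, fell by 0.33 (SE 0.06, adjusted p = 0.00301, limma). Tmem231, of the ciliary transition zone, fell by 0.18 (adjusted p = 0.0489, limma) and missed the threshold in 11 of its 16 alternatives, among them leaving out KO replicate 1, 2 or 3 or any WT replicate, with adjusted p from 0.0207 to 0.132. The list held 5 changed genes with the stricter dim filter and 6 with array weights. In none of the lists on cilia did a member other than Cabcoco1 differ by 1 log2 unit, the range being -0.33 to 0.23. The tested motile cilia genes were dim, with a mean level of 5.08 to 5.14 in WT hearts. The intraflagellar list had 6.37 to 6.50. Some motile cilia genes, such as Tekt4 (4.53) and Ttc25 (4.56) in WT hearts, lay close to the dim filter, and others, such as Odf2 (6.68), well above it. In the dimmest genes a fall of 1 log2 unit could hardly have been seen.

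**Figure D3:**
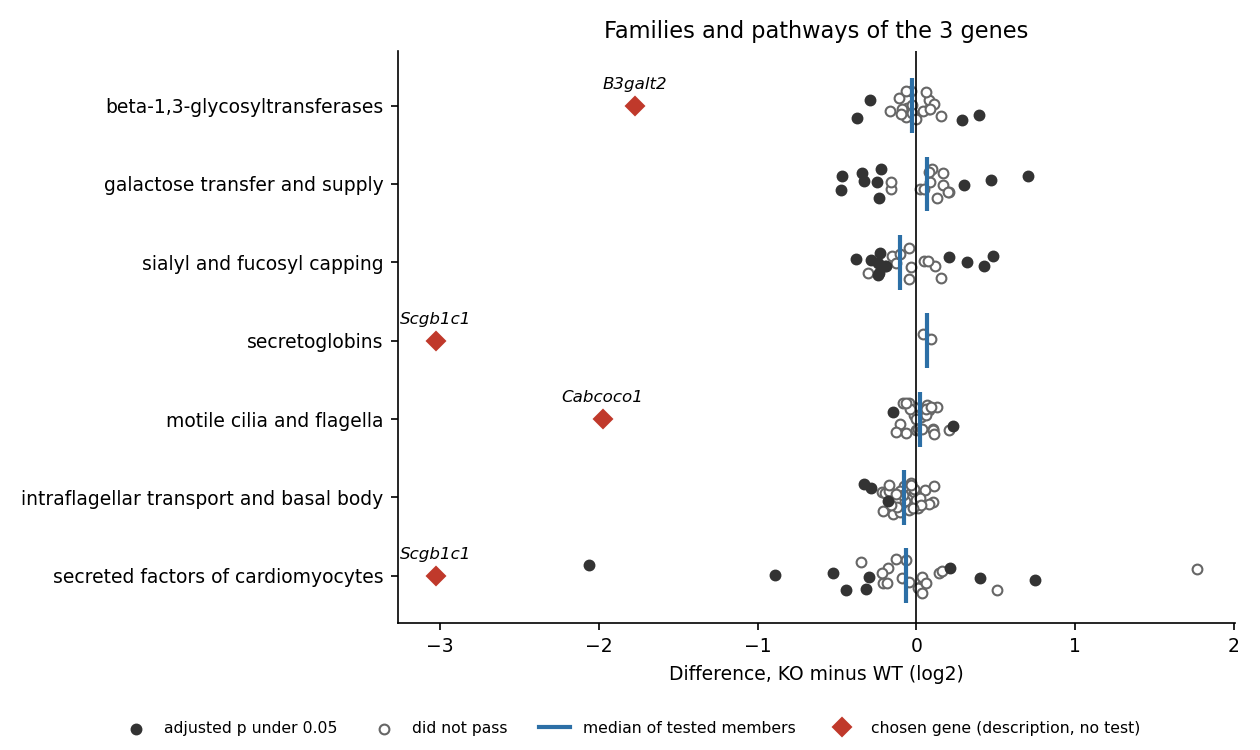
Difference KO minus WT (log2, horizontal axis) of every tested gene in 7 lists of families and pathways, 1 point per gene, filled where the adjusted p was under 0.05, with a bar at the median of each list and the 3 chosen genes as red diamonds. Medians lie between -0.10 and 0.07. Scgb1c1, Cabcoco1 and B3galt2, chosen for large falls, stand to the left of the other genes in the lists they are drawn in. Fgf16 at -2.06 is the nearest to Scgb1c1, and dim genes had little room to fall that far.

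Genes next to the 3 on the chromosome were examined as the 5 nearest tested genes on each side in RefSeq's gene order, together with any gene whose interval overlaps. Of 31 neighbours, 7 rose and 3 fell, with differences from -0.24 to 0.55. This count is near the 24.6% of all genes that changed. No neighbour came near the falls of the 3 genes. Several were dim, among them the adjacent genes Urah (5.09), Odf3 (5.50) and Tmem26 (4.58) in WT hearts, against the dim filter at 4.50. In such genes a fall of that size could hardly have been seen. Others, such as Arid5b (8.66) and Cdc73 (8.85) in WT hearts, lay well above the filter.

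Beside Scgb1c1, none of 10 neighbours passed in limma, and 1 had an unadjusted p under 0.05. Differences ranged from -0.07 to 0.12, with a median of 0.05. The adjacent genes were Urah (0.05, SE 0.09), which encodes a hydrolase of urate breakdown, and Odf3 (-0.07, SE 0.13), a gene of sperm tails. Odf3 read 5.50, 5.22, 5.18 and 5.84 in KO hearts, against 5.48, 5.42, 5.56 and 5.53 in WT hearts. Bet1l (0.05), Ric8a (0.12), the mitochondrial deacetylase gene Sirt3 (0.00) and the proteasome gene Psmd13 (0.10) lay beyond Odf3. Zfp941 (0.06), Cyp2e1 (-0.06), 5830411N06Rik (0.06) and the olfactory receptor gene Olfr524 (0.00) lay beyond Urah.

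Beside Cabcoco1, 4 of 10 neighbours rose and 0 fell, with a median of 0.14, against 10.8% of all genes higher and 13.9% lower. In limma no neighbour had an adjusted or an unadjusted p under 0.05 in the other direction. Arid5b, the adjacent gene and a DNA-binding cofactor of histone demethylation, rose by 0.36 (SE 0.05, adjusted p = 0.000739). The early growth response gene Egr2 rose by 0.45 (adjusted p = 0.000696), the autophagy gene Nrbf2 by 0.23 (adjusted p = 0.0208) and the cell cycle kinase gene Cdk1 by 0.55 (adjusted p = 0.00379, limma). Nrbf2 missed the threshold without KO replicate 1 or 2 (adjusted p = 0.0622 and 0.056, within a range of 0.00866 to 0.0622). Tmem26, adjacent on the other side, differed by 0.01 (SE 0.06), and Rhobtb1 (0.33, SE 0.19), Zfp365 (0.06), Ado (-0.04), Ank3 (-0.01) and Ccdc6 (0.04) did not pass either.

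B3galt2 lies inside the interval of Cdc73, which encodes parafibromin, a subunit of a complex that travels with RNA polymerase II. Cdc73 read 8.69, 8.67, 8.74 and 8.57 in KO hearts, against 8.88, 8.84, 8.93 and 8.76 in WT hearts. The groups did not overlap, but the difference was small, -0.18 (SE 0.06, adjusted p = 0.0375, limma). It missed the threshold in 7 of 17 alternatives, among them leaving out KO replicate 1, 2 or 4 or WT replicate 1, 2 or 3, with adjusted p from 0.0184 to 0.0984. Among the 10 genes around them, Glrx2, a mitochondrial glutaredoxin, fell by 0.23 (adjusted p = 0.0092), and Zbtb41 fell by 0.24 (adjusted p = 0.0494), which 7 of 17 alternatives did not keep, among them leaving out KO replicate 1, 2 or 4 or WT replicate 2, 3 or 4 (range 0.0219 to 0.122). Rgs18, a regulator of G protein signalling in blood cells, rose by 0.47 (adjusted p = 0.00182), the kinase gene Nek7 by 0.29 (adjusted p = 0.00763) and Dennd1b by 0.21 (adjusted p = 0.0162, limma). Kcnt2 (0.12), Lhx9 (0.05), Ro60 (-0.13), Uchl5 (0.03) and Rgs2 (-0.09) did not pass.

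**Figure D4:**
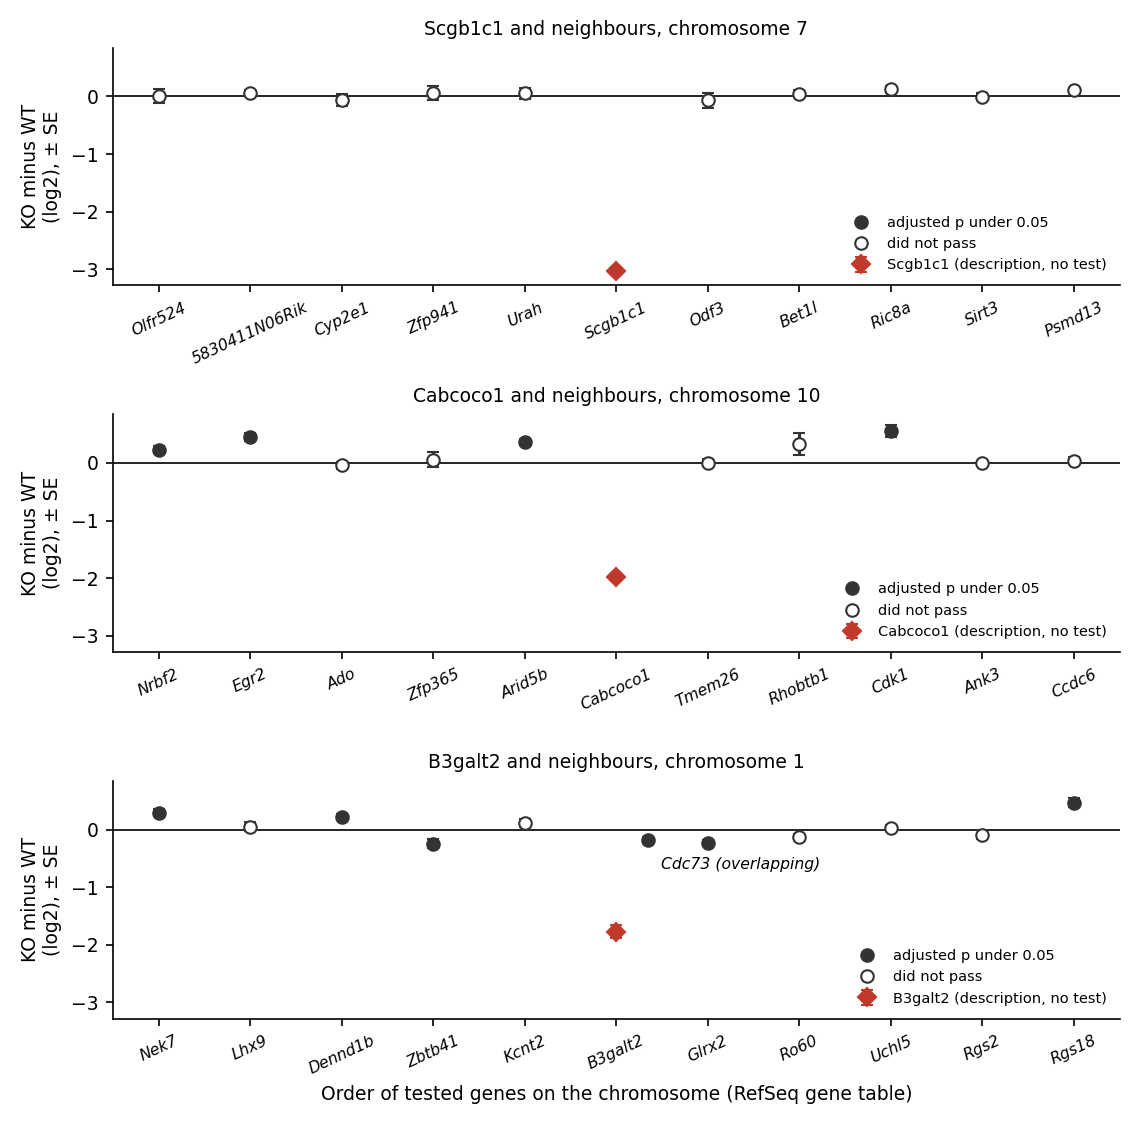
Difference KO minus WT (log2, vertical axis, with bars for the SE) of each chosen gene (red diamond) and its 5 nearest tested neighbours on each side in chromosome order, filled where the adjusted p was under 0.05, with Cdc73, which overlaps B3galt2, drawn beside it. The neighbours lie between -0.24 and 0.55, whereas the chosen genes lie at -3.03, -1.98 and -1.77. Dim neighbours had little room for a fall of that size.

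Markers of cell types were read in the same hearts, since whole tissue was used and fewer cells of a type cannot be told apart from less RNA per cell. Cardiomyocyte markers were high in every array, with a mean level over 20 genes of 12.32 to 12.35 in KO hearts and 12.43 to 12.47 in WT hearts. Of these markers 7 fell and 0 rose in limma, where at an unadjusted p under 0.05 8 changed, all lower, with a median difference of -0.08. Among all genes tested, 13.9% fell and 10.8% rose. With a variance trend and robust variances 14 markers changed. The lowest was the calcium release channel gene Ryr2 (-0.53, SE 0.05, adjusted p = 3.27e-05). Scgb1c1, Cabcoco1 and B3galt2 fell further, but they were picked for large falls. The part of a change in cardiomyocytes in their falls was not tested.

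Markers of macrophages rose in the same KO hearts, 19 of 19 tested, with a mean level of 8.35 to 8.62 in KO hearts and 7.25 to 7.42 in WT hearts and a median difference of 1.32. The share of all genes that rose was 10.8%. Tyrobp, an adaptor of myeloid receptors, rose by 1.39 (SE 0.06), and Lyz2, lysozyme, by 1.41 (SE 0.07). The part of this shift in the falls of the 3 genes was not tested.

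Scgb1c1 is known from nasal and airway tissue, so markers of those tissues were included. Of 12 tested airway and lung epithelial markers, 1 rose and 0 fell (2 at an unadjusted p under 0.05 in limma, 0 of them lower), and 8 others lay below the dim filter. Shares over all genes were 10.8% higher and 13.9% lower. The airway marker that rose was the keratin gene Krt18 (0.66, SE 0.09, adjusted p = 0.00047, limma). None of 5 tested olfactory and nasal gland markers passed in limma, also at an unadjusted p under 0.05, and 8 others lay below the filter. Omp, the olfactory marker protein gene, was 5.37 ± 0.16 in KO hearts and 5.37 ± 0.06 in WT hearts (SD, n = 4 each). No marker of these 2 tissues was lower in KO hearts at either threshold. The tested markers were dim, however. Their mean level in WT hearts was 5.24 to 5.34 for the airway list and 5.28 to 5.33 for the olfactory list. A fall had little room to show at such levels, so a loss of either tissue was not tested by these markers.

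The remaining lists held fewer changes than that of macrophages. For comparison, 10.8% of all genes rose and 13.9% fell. Atrial and conduction markers had 1 rise and 3 falls among 16, with a median difference of 0.05 and a mean level of 7.40 to 8.24 in KO hearts and 7.28 to 8.31 in WT hearts. The T-type calcium channel gene Cacna1g fell by 1.41 (SE 0.08), the pacemaker channel gene Hcn4 by 0.86 (SE 0.07) and the homeobox gene Irx3 by 0.37 (SE 0.10), while the calcium pump regulator Sln rose by 0.76 (SE 0.13). Irx3 missed the threshold without KO replicate 3 or WT replicate 1 (adjusted p = 0.0538 and 0.0544, range 0.00542 to 0.0544, limma). Bmp10, described above, is also an atrial marker. Endothelial markers had 2 rises and 0 falls among 15 (0 lower also at an unadjusted p under 0.05 in limma), with a median of 0.09. The endothelial count was 1 without KO replicate 1, 2 or 3 or WT replicate 1. Fibroblast markers leaned higher, with 5 rises and 1 fall among 15 and a median of 0.17. Smooth muscle and pericyte markers had 1 rise and 1 fall among 12, as did skeletal muscle markers among 12, whose count was 4 without KO replicate 3. The skeletal muscle rise, that of Acta1, was large (1.27), and the fall, that of Ckm, was small (-0.25). None of 9 neuronal and glial markers passed in limma, and 2 had an unadjusted p under 0.05, both higher, with a median of 0.12. Without KO replicate 2 or 3, 1 marker of this list passed.

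**Figure D5:**
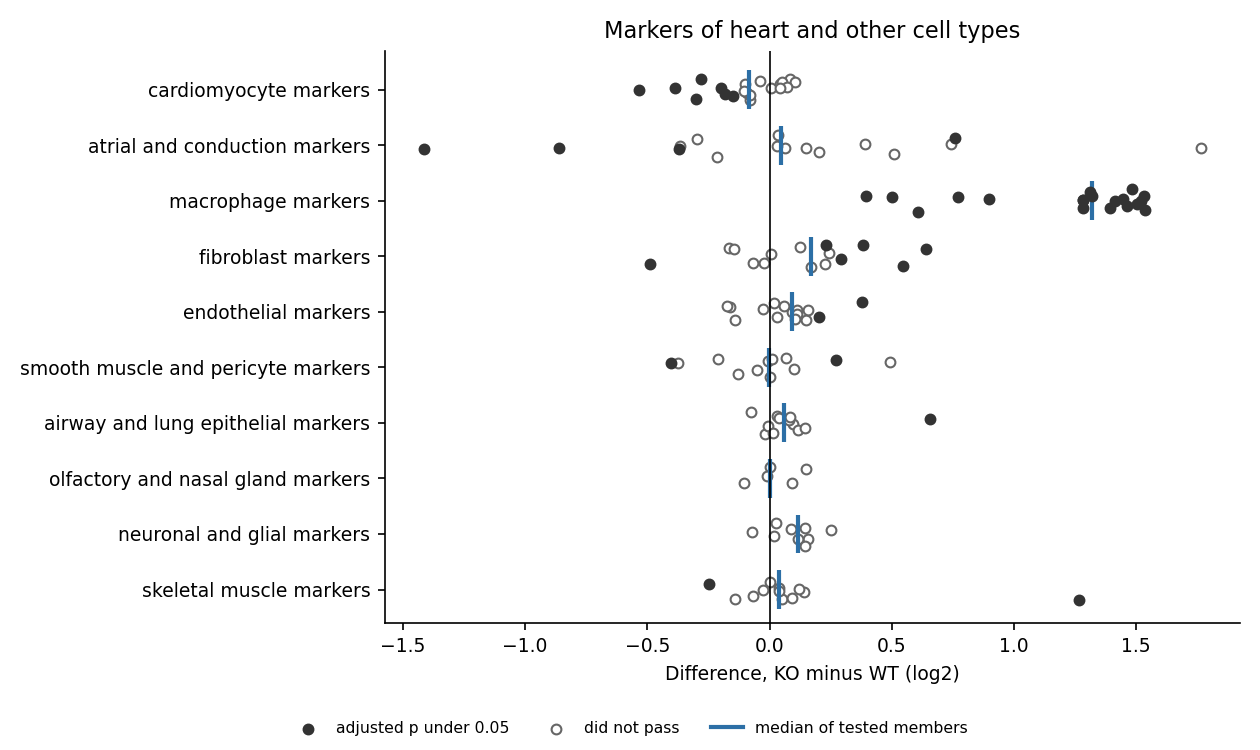
Difference KO minus WT (log2, horizontal axis) of every tested marker of 10 cell types or tissues, 1 point per gene, filled where the adjusted p was under 0.05, with a bar at each median. Macrophage markers lie to the right with a median of 1.32, cardiomyocyte markers have a median of -0.08, and no point lies as far left as B3galt2 at -1.77.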

How the data were processed

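RNA from 4 KO and 4 WT hearts was read on 1 array each. Per the submitters' processing notes, the authors used Partek and RMA, with no version or role given. The values they deposited are linear intensities, from 3.57 to 16629, although RMA usually gives log values. For genome build and probe annotation, nothing was given in the sources used here. Scanner files were not analysed here, so batches could not be examined. Precision is limited by the number of arrays.

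Log2 of the intensity was taken with no further scaling. Clusters with exactly 1 symbol in the platform annotation (21631 of 27541) were kept, the brightest for each gene, and genes under the 25th percentile of the mean over all arrays were left out (4983 genes). KO and WT were compared with limma 3.58.1 in R 4.3.3 (two-sided, Benjamini-Hochberg over all 14950 genes, threshold 0.05). Tested on simulated data, the fit recovered 95% of 100 genes changed 1.5-fold and 99% of 100 changed 2-fold, with 10 false calls. The simulated noise was normal and independent for each gene and array, and far fewer genes were changed than the 24.6% called in the hearts. These rates therefore describe the simulation and need not hold for the hearts. RefSeq's table of GRCm38.p6 gave gene order and sequences.

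The 3 genes and the lists were chosen with earlier results of these data known. Named were the 3 genes, Hdac3, the genes beside each in the order of falls, up to 4 members of each list by p (at most 2 where none passed), all neighbours and the 3 nearest profiles.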

Additional observations from a re-analysis of the deposited data

Results flagged for a closer look

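In 14 of 208 groups (104 named genes in KO and in WT hearts), 1 heart stood apart: its gap to the nearest heart, as a share of the range of its group of 4, exceeded Dixon's critical value. Chance flags about 1 in 20 groups. Scgb1c1, Cabcoco1 and B3galt2 were not among them.

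KO replicate 4 was low for Hdac3 (share 0.916, 8.50 against 8.59 in the other KO hearts), for the calcium store gene Casq2 (0.88, 10.75 against at most 11.04) and for Postn, a matrix gene of fibroblasts (0.862, 9.67 against 10.13 to 10.21). KO replicate 3 was high for Ank3 (0.949, 8.50) and low for Gas8 (0.838, 6.16). KO replicate 2 was low for Glrx2 (0.96, 9.83) and high for St3gal2 (0.852, 8.02 against 8.01).

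WT replicate 2 was high for Slc38a4 (0.966, 7.80 against 7.21 to 7.23), Cyp2e1 (0.919, 6.29 against 5.94 to 5.97), Casq2 (0.839, 11.44 against 11.29 to 11.31) and Arid5b (0.837, 8.76 against 8.61 to 8.64). The same heart was low for Nkx2-1 (0.934, 4.72) and Nek7 (0.877, 10.08). WT replicate 1 was low for Lum, a fibroblast matrix gene (0.83, 8.59 against 8.81 to 8.86). WT replicate 2 was also the highest WT heart for B3galt2, at 7.32, without passing the critical value there.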

How the results depend on the processing

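In 17 alternatives, of which 8 leave out 1 array each, the difference of each of the 3 genes moved by less than 1 SD between replicates except when 16 was added to the intensity before log2. It was then -2.85 for Scgb1c1, -1.82 for Cabcoco1 and -1.43 for B3galt2. Leaving out single arrays gave -3.08 to -2.99 for Scgb1c1, -2.01 to -1.94 for Cabcoco1 and -1.84 to -1.66 for B3galt2. Counts of changed genes stayed within 1.5 times the main count, from 1213 to 2177 higher and 1658 to 2365 lower, as did the 10 changed neighbours (7 to 11) and the galactose list (8 to 12). The motile cilia count fell to 1 without the dim filter, with the stricter one, with a variance trend and with the replicate block, and was 1 to 2 without single arrays. Intraflagellar genes numbered 5 with the stricter dim filter and 6 with array weights. Leaving out single arrays gave 2 to 4 glycosyltransferases, 5 to 10 secreted factors and 6 to 10 capping genes. Cardiomyocyte markers numbered 14 with a variance trend, against 7, fibroblast markers 10 with array weights, against 6, and neuronal markers 1 with array weights, against 0. The endothelial count was 1 with median centring, with the replicate block and without the dim filter, against 2. The airway count was 0 with the stricter dim filter, against 1. The cause was not tested. Of 1691 values of 101 other named genes, 57 lost the call, 15 gained it and 0 changed sign with a call. Deviations of same-numbered KO and WT hearts from their group means correlated at -0.04 to 0.08 across genes. Those of differently numbered hearts correlated at -0.23 to 0.23. These values gave no sign that the numbers pair the hearts, but they cannot exclude a pairing. With the replicate block 1466 genes were higher and 1916 lower. No KO heart (1, 2, 3 or 4) correlated best with the WT heart of its own number. Signal over background could not be assessed.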
